A study of Arabidopsis thaliana with 96 samples.

Results

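The comparison described here set 8 Arabidopsis thaliana plants given 10 mM nitrate against 8 plants given 5 mM nitrate, all grown in high light, in an experiment of 96 plants. The 16 plants were chosen by the titles of the samples alone, which give the light level, the nitrate dose and the replicate number. All 96 plants were Col-0, the standard laboratory accession, and fell into 12 groups of 8 made of 3 light levels and 4 nitrate doses (2, 5, 10 and 20 mM). Photon flux was 500 µmol m-2 s-1 in high light, against 250 in mid light and 100 in low light, under days of 8 h and nights of 16 h. Seedlings were moved to pots of calcined clay and given 30 mL of half-strength Hoagland's solution at their nitrate dose, and 2 leaf punches per plant were frozen 30 days later. Each library is the polyadenylated RNA of 1 plant, so the spread within a group is spread between plants.

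Nitrate is taken up by roots and leaves through transporters, reduced to nitrite by nitrate reductase and to ammonium by nitrite reductase, and the ammonium enters amino acids through glutamine synthetase and glutamate synthase. Much of the nitrogen of a leaf is held in the proteins of photosynthesis, among them Rubisco and the light-harvesting proteins that bind chlorophyll. Plants short of nitrogen in bright light are known for pale leaves, a build-up of anthocyanin pigment and the use of stored amino acids.

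The 16 libraries held 11.06 to 16.52 times 1000000 counts (median 13.31). The leaf markers RBCS1A, LHCB2.1 and CA1 were detected in all 16. No pair of libraries within a group looked like a copy of another: over 56 pairs, chi-square divided by its degrees of freedom was at least 16.55. Library codes run through 4 sets of 24 that each hold 2 plants of every group. These code sets were a term of the main fits, although the sources used here do not say whether they mark a batch. In the third code set the high-light 5 mM plants have codes next to the 10 mM plants of low and mid light, and the high-light 10 mM plants next to the 5 mM plants of those light levels, whereas in the other sets plants of 1 dose stand together, so the direction within the third set was looked at apart. Replicate 8 of the 10 mM group stood apart: on the first principal component of the 32 high-light libraries, which held 42.5% of the variance, it scored 133, while the other 10 mM plants lay between -33.3 and 72.95. Replicates 1 and 2 of the 5 mM group, both of the first code set, lay at the other end with -136 and -116, below the other 5 mM plants at -39.5 to 29.4. Values without replicate 8 are therefore given beside many of the results, though not all.

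At 10 mM, 4 genes of the light-harvesting antenna, 3 of photosystem subunits, the ferritin FER3 and the fumarase FUM2 rose. The alcohol dehydrogenase ADH1, the proline dehydrogenase ERD5, the early light-induced protein ELIP1 and the anthocyanin regulator PAP2 fell. Of 18003 genes tested, 70 (0.389%) had an adjusted p under 0.05 in the quasi-likelihood test of edgeR (Benjamini-Hochberg), and are termed called. Of these, 43 (0.239%) were higher at 10 mM and 27 (0.15%) lower. A symbol in the reference gene table was found for 33 of the 70, and the other 37 carry a locus name alone. A log2 change of at least 1 in size was seen for 53 of the 70, of which 35 rose and 18 fell. Their adjusted p-values lay just under the threshold, between 0.0370 and 0.0494, and 520 genes had one under 0.06. Without an adjustment, 4406 genes (24.5%) had a p under 0.05, 2575 higher (14.3%) and 1831 lower (10.2%). Whatever the p, 8979 of the 18003 genes had a positive log2 change. The sign of the change was the same within all 4 code sets for all 70 called genes, the third set included. Part of this agreement follows from the choice of the 70 genes, which were called in these same 16 libraries.

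The number of calls rested on single plants, while the 70 called genes kept their directions. Leaving out 10 mM replicate 1, 4, 5 or 6, or 5 mM replicate 3, 5, 7 or 8, left 0 calls by edgeR, with 3496 to 4524 genes at an unadjusted p under 0.05. The count was 4 without 10 mM replicate 2, 1 without 10 mM replicate 3, 1 without 5 mM replicate 1 and 8 without 5 mM replicate 2. It rose to 1262 without 10 mM replicate 7 and to 1616 without 5 mM replicate 4, and was 63 (0.347%) without 10 mM replicate 8, with 35 higher (0.193%) and 28 lower (0.154%). Of these 63 genes, 42 were among the 70. It was 53 without 5 mM replicate 6. All 70 genes kept their direction in each of these 16 fits. Much of this follows from their being called in the same 16 libraries, of which each fit left out only 1. Of the 26 called genes named below, FRO3, PSAK, LHCB2.1, PPT2, PSBTN, LHCB2.3, GPAT8, UMAMIT17, CIPK4 and LHCB3 lost their call without 10 mM replicate 8, and the other 16 kept it. Not one of the 26 kept its call in all 16 fits. With all 16 plants DESeq2 called 2253 genes (12.5%), and the fit of all 96 libraries, which estimates the spread from all 12 groups, called 1383 (7.09%), 993 higher (5.09%) and 390 lower (2%). Of the 70 genes, 66 were called in the fit of 96 libraries and 70 by DESeq2.

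In the antenna, 4 genes rose. They encode proteins of the major light-harvesting complex of photosystem II, which binds most of the chlorophyll of a leaf: LHCB1.1, LHCB2.1, LHCB2.3 and LHCB3. LHCB2.3 ran from 2.06 to 679 CPM (counts scaled to 1000000 per library with TMM factors, median 167) at 5 mM and from 31.8 to 2445 CPM (median 1037) at 10 mM. The log2 change was 2.51 ± 0.48 (SE, adjusted p = 0.0475). The lowest plants in both groups were those of the first code set, and every code set showed a rise. The groups overlapped outside the first code set too, with 455 CPM in 10 mM replicate 7 and 679 CPM in 5 mM replicate 4. LHCB1.1 rose by a log2 of 1.92 ± 0.36, from 240 to 2074 CPM (median 687) at 5 mM to 1148 to 7566 CPM (median 2735) at 10 mM. LHCB2.1 rose by 1.46 ± 0.28, from a median of 555 CPM to one of 1691 CPM, and LHCB3 by 1.45 ± 0.29, from a median of 1317 CPM to one of 4244 CPM. In each of these 4 genes, 5 of the 8 plants at 10 mM lay above the highest plant at 5 mM. LHCB1.1 stands beside near-identical copies, LHCB1.2 and LHCB1.3, and LHCB2.1 beside LHCB2.2, so the share of reads of each copy is uncertain. Without 10 mM replicate 8 the log2 changes were 1.55 for LHCB1.1, 1.23 for LHCB2.1, 2.16 for LHCB2.3 and 1.21 for LHCB3, and of these LHCB1.1 alone stayed under the threshold, with an adjusted p of 0.0361.

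The windows of 250 bases before the annotated starts of 3 of these genes are shown because the genes moved together. They come from the RefSeq assembly TAIR10.1, matched by locus, since the count table carries no coordinates. Each runs 5′ to 3′ toward the gene, and capitals mark the I-box core GATAAG or the G-box CACGTG, motifs known from promoters of light-regulated genes, searched on both strands.
LHCB1.1 (chr1:10475970-10476219, minus strand): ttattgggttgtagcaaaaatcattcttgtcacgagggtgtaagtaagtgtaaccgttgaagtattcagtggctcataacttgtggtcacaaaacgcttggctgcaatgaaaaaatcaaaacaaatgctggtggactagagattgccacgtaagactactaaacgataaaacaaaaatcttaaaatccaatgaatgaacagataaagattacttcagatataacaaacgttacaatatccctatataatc
LHCB2.1 (chr2:1824481-1824730, minus strand): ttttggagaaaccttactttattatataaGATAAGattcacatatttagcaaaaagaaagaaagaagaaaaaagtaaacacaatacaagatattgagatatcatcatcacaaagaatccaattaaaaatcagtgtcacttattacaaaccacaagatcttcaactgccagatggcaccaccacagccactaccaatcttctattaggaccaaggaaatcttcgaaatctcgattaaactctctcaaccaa
LHCB2.3 (chr3:10255656-10255905, plus strand): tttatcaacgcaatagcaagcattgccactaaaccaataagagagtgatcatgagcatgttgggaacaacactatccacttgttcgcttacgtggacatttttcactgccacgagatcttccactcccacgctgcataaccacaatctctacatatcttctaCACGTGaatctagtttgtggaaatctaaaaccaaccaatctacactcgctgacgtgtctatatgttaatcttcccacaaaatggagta
LHCB2.1 held 1 I-box core, starting at -221 from the gene start, and LHCB2.3 held 1 G-box, at -88. Neither run of letters was found in the window of LHCB1.1. The I-box core is found in 12.3% of 27443 such windows of protein-coding genes and the G-box in 6.49%, so these matches are a description of the windows. Among 17503 windows of tested genes the shares were 12.4% and 7.56%. The window of LHCB3 held neither run of letters. It shares 138 bases with the neighbouring gene AT5G54260 and is not printed.

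**Figure D1:**
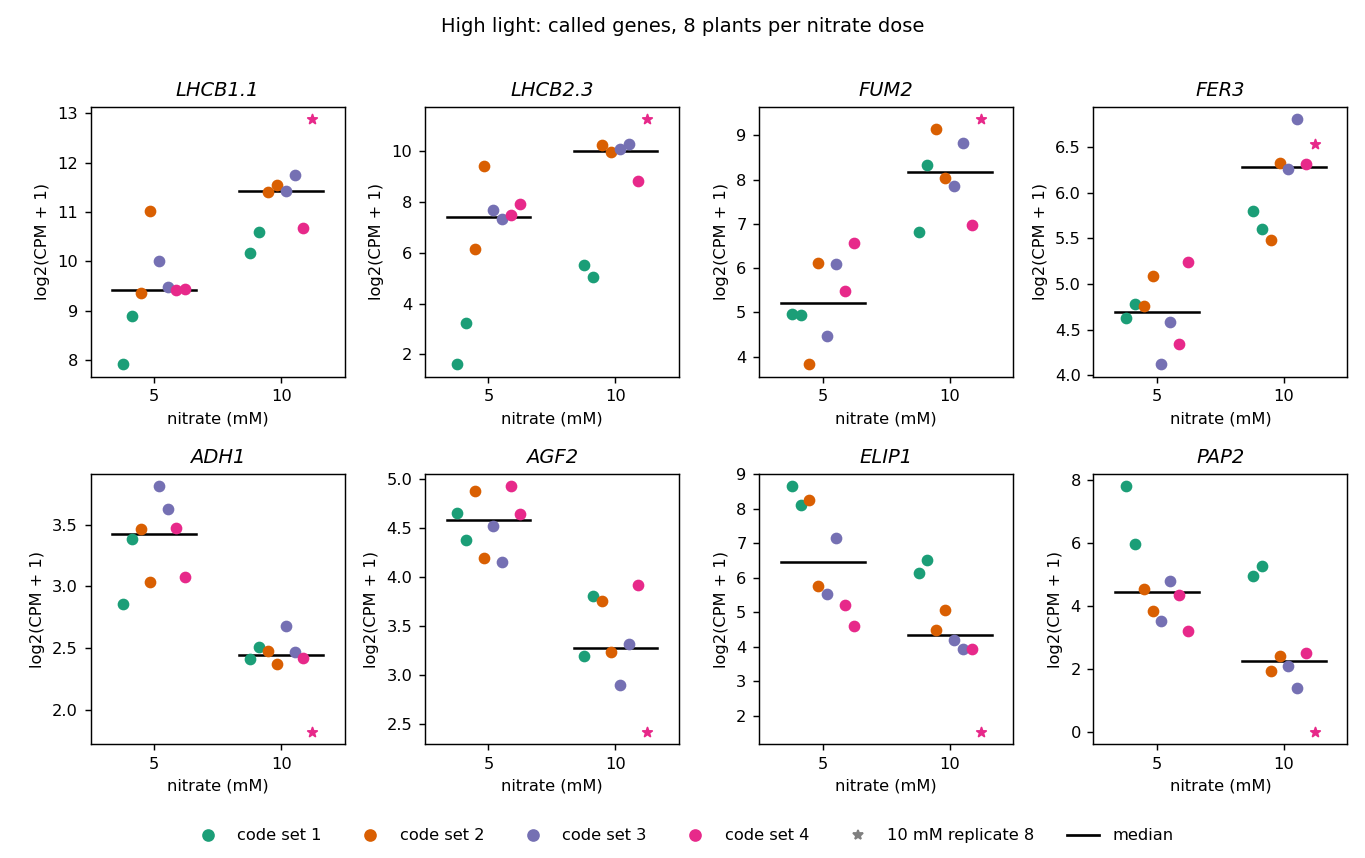
Levels of 8 called genes as log2(CPM + 1) in the 8 plants at 5 mM and the 8 plants at 10 mM nitrate, in high light. Points are plants coloured by code set, bars are medians, and the star is 10 mM replicate 8; FUM2, FER3, ADH1 and AGF2 do not overlap between doses, and that replicate has the highest or the lowest level in 7 of the 8 panels.

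Of 21 antenna genes tested, 20 had a positive log2 change and 4 were called higher, with a median of 0.96 against -0.001 over all tested genes. Over all tested genes 8979 of 18003 changes were positive and 0.239% were called higher. The gene lists used here and below were chosen with earlier results of these data known, so their counts are descriptions. Without 10 mM replicate 8 the median was 0.80 and 1 was called. The fit of 96 libraries called 16 of the 21 higher and 0 lower, against 5.09% of all genes called higher. The photosystem and electron transport genes all had a positive change: 33 of 33, with a median of 0.80 and 3 called, against 0.239% of all tested genes called higher. PSAK, a subunit of photosystem I, rose by a log2 of 1.04 ± 0.20 (adjusted p = 0.0475), from 196 to 968 CPM (median 690) at 5 mM to 579 to 2296 CPM (median 1259) at 10 mM. PSBQ1, a subunit of the oxygen-evolving complex, rose by 1.31 ± 0.26, and PSBTN, a small photosystem II protein, by 1.23 ± 0.24. Without replicate 8 the median of the photosystem list was 0.65, with 1 called.

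Genes for carbon fixation and chlorophyll synthesis had positive changes too, with 0 members called. In the Calvin cycle list 20 of 21 changes were positive (median 0.52), and 15 were higher at an unadjusted p under 0.05, against 14.3% of all tested genes. RBCS1A, a small subunit of Rubisco, ran from 2717 to 6131 CPM (median 5049) at 5 mM and from 4266 to 27070 CPM (median 7201) at 10 mM. Replicate 8 was the highest of these, and the others at 10 mM reached 8537 CPM. The log2 change of RBCS1A was 0.91 ± 0.30 (adjusted p = 0.0985), and 0.55 ± 0.16 without replicate 8. In the third code set the median of the Calvin cycle list was 0.06, against 0.36 to 0.70 in the others. Without replicate 8 it was 0.31, with 20 of 21 changes still positive. All 20 chlorophyll synthesis genes and plastid regulators had a positive change (median 0.60), and without replicate 8 there were 18 of 20 (median 0.42). HEMA1, which encodes the glutamyl-tRNA reductase that starts the pathway, had a log2 change of 1.41 ± 0.33 (adjusted p = 0.0562) and medians of 126 and 329 CPM. Without 10 mM replicate 8 its adjusted p was 0.0250 and its change 0.98 ± 0.14. GUN5, a subunit of magnesium chelatase, behaved alike in these values, with a change of 1.299 ± 0.29 (adjusted p = 0.0529) and, without that plant, 0.95 ± 0.17 (adjusted p = 0.0477). The 7 photorespiration genes had a median of 0.26, and none had an unadjusted p under 0.05. That median was -0.44 in the third code set, against 0.36 to 0.56 in the others, and 0.18 without replicate 8.

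The share of counts from chloroplast-encoded genes was 1.83% ± 0.22 (SD, n = 8) at 5 mM and 2.52% ± 0.54 at 10 mM. The difference of 0.692 points passed an exact two-sided permutation test within code sets (p = 0.00617, adjusted over 3 shares 0.00926), and the share was higher at 10 mM in all 4 code sets. Without 10 mM replicate 8, an alternative chosen after seeing the data, the difference was 0.5263 points (exact permutation p = 0.00926). The 10 most abundant genes of a library held 5.00% ± 0.72 of counts at 5 mM and 6.84% ± 1.49 at 10 mM (exact permutation p = 0.00154, adjusted 0.00463). This difference was 1.83 points with all plants and 1.33 points without replicate 8 (exact permutation p = 0.00154). The mitochondrial share was 0.184% ± 0.037 and 0.170% ± 0.043 (exact permutation p = 0.384). These shares describe polyadenylated libraries, in which organelle transcripts are poorly sampled.

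Outside the photosynthetic apparatus, rises were seen in single genes of carbon, iron and surface lipid metabolism. FUM2, the cytosolic fumarase that makes the fumarate stored in Arabidopsis leaves, ran from 13.2 to 93.9 CPM (median 37.04) at 5 mM and from 113 to 659 CPM (median 290) at 10 mM. The groups did not overlap, and the log2 change was 2.94 ± 0.46 (adjusted p = 0.0462), or 2.74 ± 0.50 without 10 mM replicate 8. FER3, a plastid ferritin that stores iron, ran from 16.4 to 36.9 CPM (median 24.9) at 5 mM and from 43.8 to 111 CPM (median 77.1) at 10 mM, again without overlap. This was a log2 change of 1.504 ± 0.21 (adjusted p = 0.0370). Over all tested genes 41 (0.228%) had groups of 8 that did not overlap, 25 higher (0.139%) and 16 lower (0.0889%) at 10 mM, and 12 of these were called, 9 of them higher and 3 lower at 10 mM. PPT2, a transporter of phosphoenolpyruvate across the plastid envelope, rose by 1.77 ± 0.34, from 1.07 to 14.8 CPM to 6.28 to 42.5 CPM. KCS8, of the family of enzymes that lengthen fatty acids, rose by 2.11 ± 0.29. GPAT8, an acyltransferase of cutin synthesis, rose by 2.06 ± 0.39.

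PCNA1, the sliding clamp of DNA replication, rose from 0.213 to 1.27 CPM (median 0.978) at 5 mM to 0.863 to 10.9 CPM (median 2.603) at 10 mM. That is a log2 change of 2.104 ± 0.34 (adjusted p = 0.0462), or 1.77 ± 0.26 without replicate 8. All 13 tested genes of DNA replication and cell division had a positive change and an unadjusted p under 0.05, with a median of 1.23 and 1 called. The fit of 96 libraries called 11 of them higher and 0 lower, out of 15 that it tested. Over all tested genes 0.239% were called higher, 14.3% were higher at an unadjusted p under 0.05, and 5.09% were called higher in the fit of 96. This list, like the others, was chosen with earlier results of these data known, so these shares are no test of it. MCM7, a subunit of the replicative helicase, had a log2 change of 1.78 ± 0.40 (adjusted p = 0.0562). The list's median was 0.33 in the second code set and 1.197 to 1.83 in the others. The 12 expansins and GASA peptides, small proteins linked to cell expansion, also all had positive changes (median 1.21), with 0 called. EXPA15 had a change of 1.92 ± 0.41 with a highest level of 7.16 CPM, and GASA4 one of 1.46 ± 0.32 (both adjusted p = 0.0528).

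**Figure D2:**
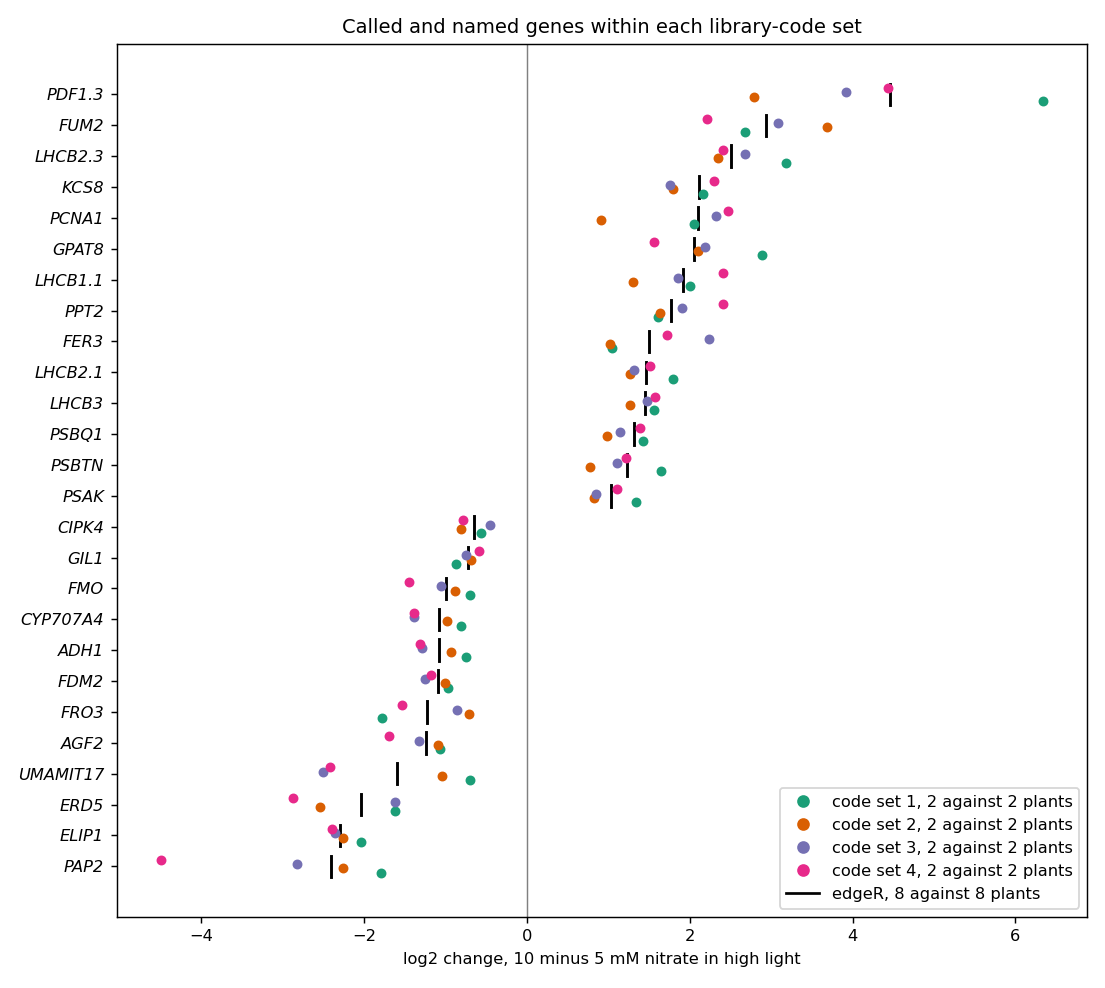
Log2 change from 5 to 10 mM nitrate in high light for the 26 called genes that are named, within each code set (coloured points, 2 against 2 plants) and in the fit of all 16 plants (black bars). For each of the 26 genes all 4 points lie on the same side of 0, which follows in part from their being called in these same plants. The points of PAP2, PDF1.3 and UMAMIT17 lie far apart.

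Of the named genes 12 fell, among them genes known from stress and from the use of stored nitrogen. ADH1, the alcohol dehydrogenase, ran from 6.25 to 13.1 CPM (median 9.74) at 5 mM and from 2.53 to 5.41 CPM (median 4.44) at 10 mM, without overlap. The change in log2 was -1.08 ± 0.15 (adjusted p = 0.0370), and without 10 mM replicate 8, the lowest plant, -1.02 ± 0.14. ERD5 encodes the mitochondrial proline dehydrogenase that begins the breakdown of proline. It ran from 53.7 to 199 CPM (median 126) at 5 mM and from 7.34 to 65.2 CPM (median 21.6) at 10 mM, and 7 of 8 plants at 10 mM lay below the lowest at 5 mM. Its log2 change was -2.03 ± 0.40 (adjusted p = 0.0475). ELIP1, a chlorophyll-binding protein made under light stress, ran from 23.5 to 402 CPM (median 97.9) at 5 mM and from 1.92 to 91.4 CPM (median 19.5) at 10 mM. It fell by 2.29 on the log2 scale (SE 0.41), with the plants of the first code set among the highest in both groups. AGF2, an AT-hook DNA-binding protein, fell by 1.23 (SE 0.21) without overlap, from 16.8 to 29.3 CPM to 4.37 to 14.1 CPM.

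The other named falls outside the flavonoid lists lay between 0.64 and 1.59 in log2 size. FRO3, of the ferric reductase family, fell by 1.22 (SE 0.23). CYP707A4, which breaks down abscisic acid, fell by 1.07 (SE 0.20). UMAMIT17, of a family of amino acid transporters, fell by 1.59 (SE 0.30), although the groups ran from 2.85 to 57.1 and from 0.524 to 44.7 CPM. FDM2, which acts in RNA-directed DNA methylation, fell by 1.09 (SE 0.17) and FMO, a flavin monooxygenase, by 0.99 (SE 0.20). GIL1, which acts in gravitropism under light, fell by 0.72 (SE 0.11) and CIPK4, a protein kinase of calcium signalling, by 0.64 (SE 0.12). CIPK4 was among the 4 of the 70 genes not called in the fit of 96 libraries (adjusted p = 0.0630).

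PAP2, a MYB factor that switches on the late genes of anthocyanin synthesis, was the called gene of the flavonoid lists. It ran from 8.15 to 222 CPM (median 20.7) at 5 mM and from 0 to 37.5 CPM (median 3.80) at 10 mM. Its log2 change was -2.40 ± 0.46 (adjusted p = 0.0475), or -2.24 ± 0.35 without 10 mM replicate 8, which had 0 counts. The highest plants of both groups were of the first code set. All 14 flavonoid regulators tested had a negative change, with a median of -0.35, and TT8, a partner of PAP2 in the anthocyanin complex, had a change of -1.48 ± 0.48 (adjusted p = 0.0905). The pigment enzymes had negative changes that did not pass the test. All 6 late anthocyanin enzymes were negative (median -1.09, 0 called). Of these, 2 were lower at an unadjusted p under 0.05, against 10.2% of all tested genes. With 1 library left out the median ran from -1.67 to -0.87 for these enzymes and from -0.63 to -0.27 for the regulators. DFR, which makes leucoanthocyanidins, ran from 454 to 2019 CPM (median 775) at 5 mM and from 2.45 to 782 CPM (median 507) at 10 mM, where replicate 8 was the lowest and the next lowest plant had 138 CPM. Its log2 change was -1.03 ± 0.63 (adjusted p = 0.327). LDOX, the next enzyme, had a change of -1.13 ± 0.58 (adjusted p = 0.247). CHS, the first enzyme of the flavonoid pathway, had one of -0.96 ± 0.44 (adjusted p = 0.198), and 12 of 16 early enzymes were negative.

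**Figure D3:**
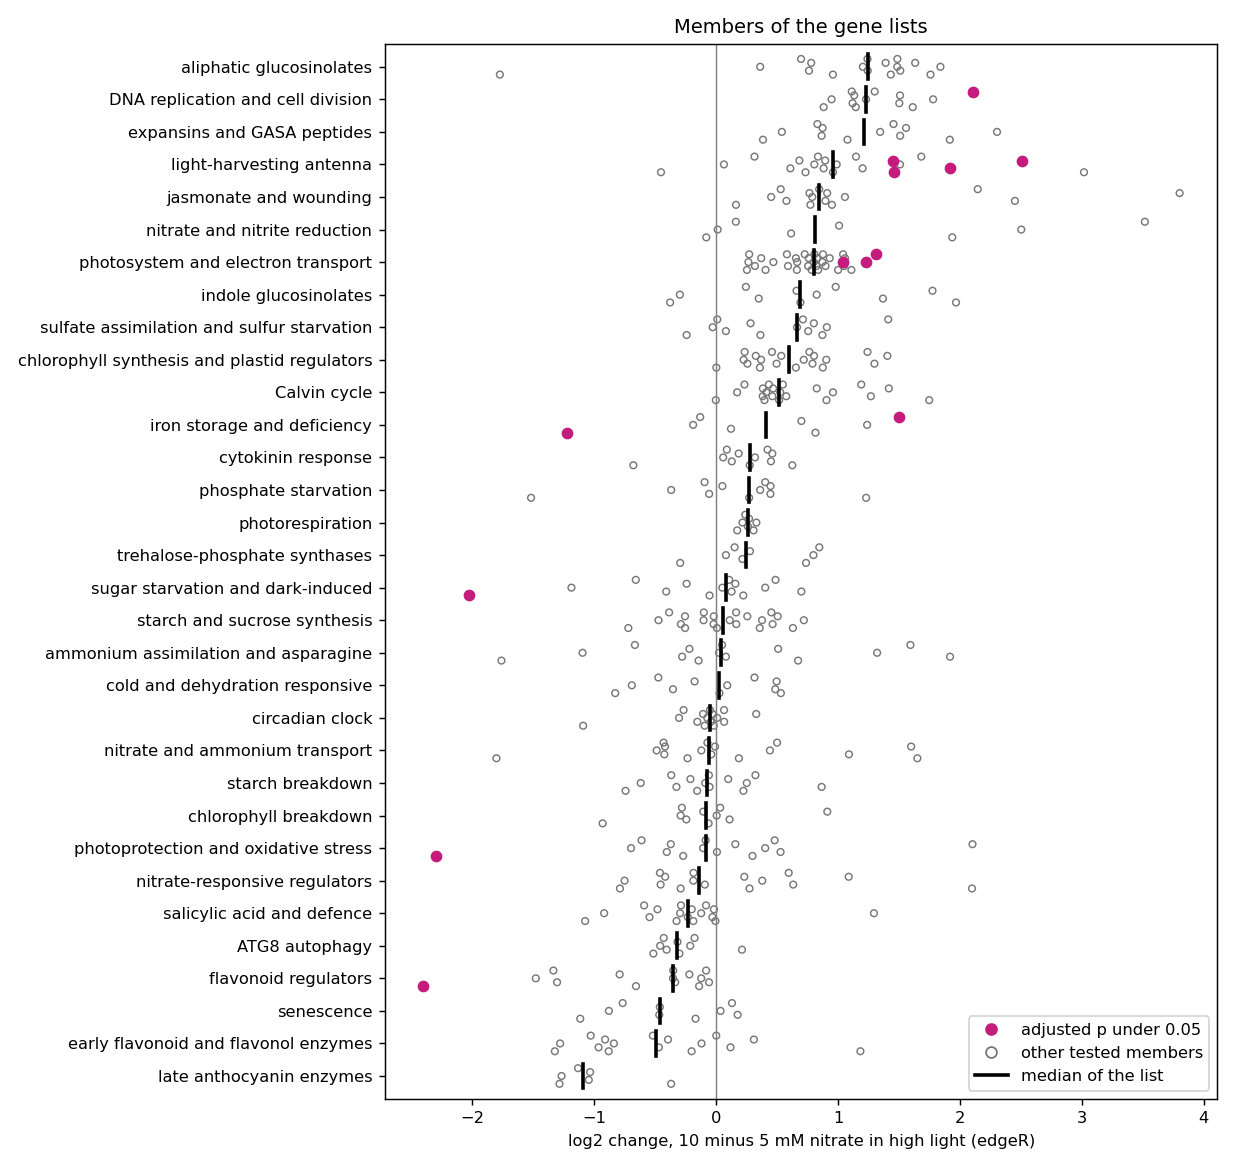
Log2 change from 5 to 10 mM nitrate in high light for the tested members of each gene list, by edgeR. Filled points have an adjusted p under 0.05 and black bars are list medians; they range from -1.09 for late anthocyanin enzymes to 1.24 for aliphatic glucosinolates.

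The genes of nitrate reduction did not pass the threshold, although NIR1, which encodes nitrite reductase, did not overlap between the groups. It ran from 26.1 to 83.6 CPM (median 59.1) at 5 mM and from 98.0 to 699 CPM (median 181) at 10 mM. Its log2 change was 1.94 ± 0.40 (adjusted p = 0.0528). Replicate 8 was the highest, and without it the change was 1.48 ± 0.28 (adjusted p = 0.0514). NIA1, a nitrate reductase, ran from 0.300 to 12.4 CPM (median 2.601) and from 4.76 to 113 CPM (median 13.8), with a change of 3.52 ± 0.75 (adjusted p = 0.0528). At 10 mM its replicates 2 and 8 had 103 and 113 CPM, and the others 4.76 to 27.6 CPM. NIA2, the other nitrate reductase, had medians of 52.7 and 234 CPM and a change of 2.503 ± 0.57 (adjusted p = 0.0554). Of 8 genes of nitrate and nitrite reduction 7 were positive (median 0.81), with 0 called. Higher at an unadjusted p under 0.05 were 5 of them, against 14.3% of all tested genes. The fit of 96 libraries called 5 higher, against 5.09% of all genes. Without 10 mM replicate 8 the median of the list was 0.57, with 6 of 8 positive.

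Ammonium assimilation held changes of both signs. GLT1, the NADH-dependent glutamate synthase, had a change of 1.59 ± 0.36 (adjusted p = 0.0553), and medians of 24.2 and 49.03 CPM. GLN1;4, a cytosolic glutamine synthetase, had one of -1.76 ± 0.46 (adjusted p = 0.0604). Its groups did not overlap, with 172 to 450 CPM (median 270) at 5 mM and 7.43 to 149 CPM (median 92.7) at 10 mM. ASN1, an asparagine synthetase, had a change of 1.92 ± 0.76 (adjusted p = 0.147), with a negative difference in the first code set and positive ones in the other 3. Over the 14 genes of this list the median was 0.04, and it was -0.17 with libraries scaled by total counts alone.

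Transporters and regulators of nitrate response were mixed as well, with 0 called in either list of 16 and medians of -0.05 for transporters and -0.14 for regulators. NRT2.5, a high-affinity nitrate transporter known from nitrogen-starved plants, ran from 7.27 to 64.1 CPM (median 16.4) at 5 mM and from 0 to 12.7 CPM (median 4.44) at 10 mM. Its change was -1.80 ± 0.60 (adjusted p = 0.0958). NPF6.2, a transporter of the NRT1 family, had one of 1.6 ± 0.34 (adjusted p = 0.0528), and 7 of 8 plants at 10 mM lay above the highest at 5 mM. LBD37, a nitrate-induced repressor, had a change of 2.099 ± 0.52 (adjusted p = 0.0581), and NLP7, a nitrate sensor and transcription factor, one of 0.63 ± 0.14 (adjusted p = 0.0529). NRT2.1, BT2 and SEN1 had too few counts to be tested.

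**Figure D4:**
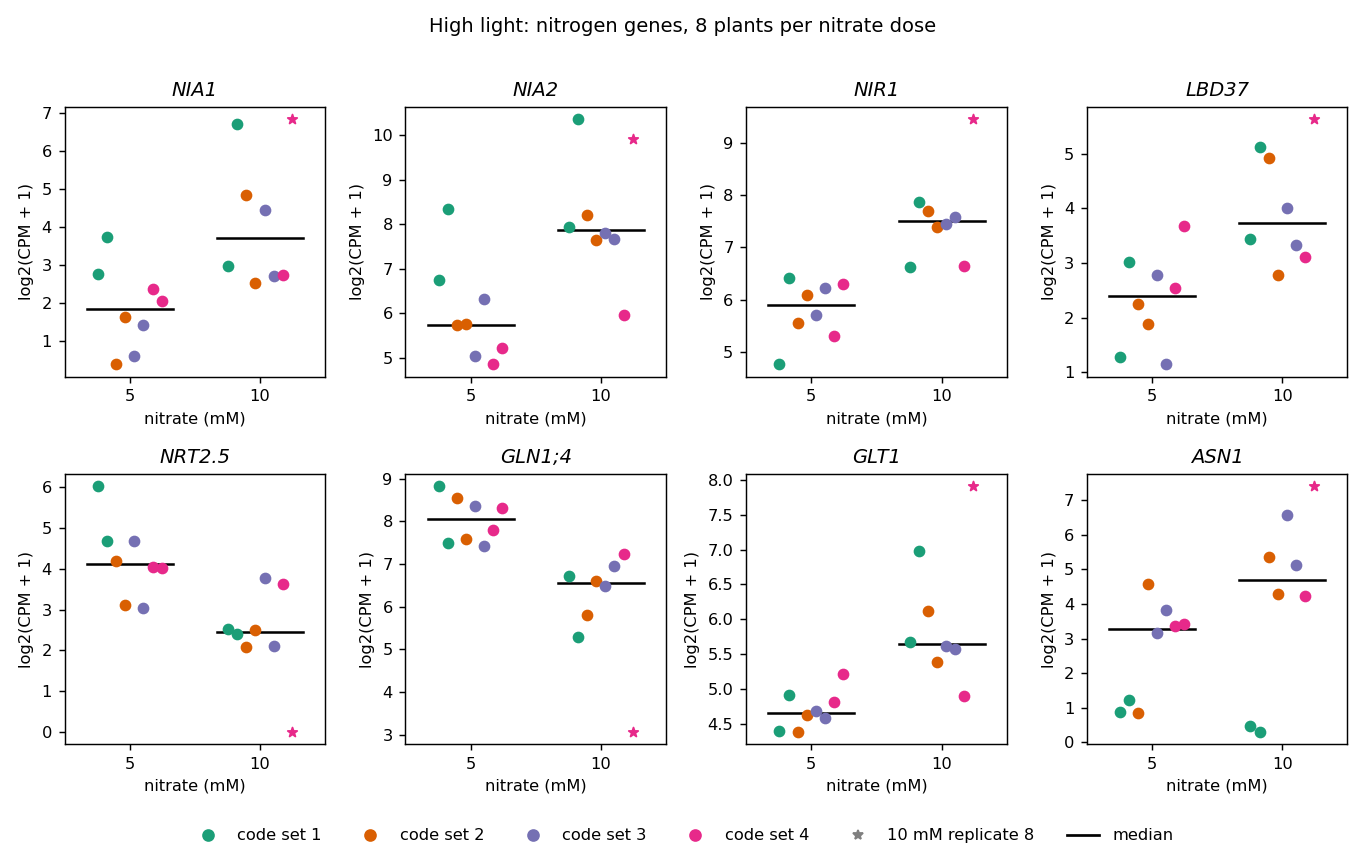
Levels of 8 nitrogen genes as log2(CPM + 1) in the 8 plants at each dose in high light. Points are plants coloured by code set, bars are medians, and the star is 10 mM replicate 8; NIR1 and GLN1;4 do not overlap between the doses, and none of the 8 genes was called.

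Genes for glucosinolates, defence compounds that contain nitrogen and sulfur, had mostly positive changes with 0 called. Of 17 genes of aliphatic glucosinolate synthesis 16 were positive (median 1.24), and MAM3 was at -1.77 ± 0.81 (adjusted p = 0.197). The fit of 96 libraries called 12 higher and 0 lower, against 5.09% of all genes called higher. IMD1, an isopropylmalate dehydrogenase of methionine chain elongation, had a change of 1.84 ± 0.57 (adjusted p = 0.0817) and medians of 44.3 and 191 CPM. Among 11 indole glucosinolate genes 9 were positive (median 0.69), with CYP79B3, the first enzyme from tryptophan, at 1.97 ± 0.52 (adjusted p = 0.0629). Sulfate assimilation had a median of 0.66 over 13 genes. Its sulfite reductase gene SIR had a change of 0.66 ± 0.17 (adjusted p = 0.0599). All 15 jasmonate and wounding genes were positive (median 0.85, and 0.66 to 1.29 with 1 library left out). VSP1, a storage protein induced by jasmonate, had 0.200 to 104 CPM at 5 mM and 63.9 to 2286 CPM at 10 mM (log2 change 3.80 ± 1.17, adjusted p = 0.0829). PDF1.3, a defensin, was called at 4.46 ± 0.77 (adjusted p = 0.0475). Its levels ran from 0.231 to 8.17 CPM (median 1.13) and from 4.71 to 816 CPM (median 16.7), and reads shared with other defensins such as PDF1.2 make it uncertain. Of 17 salicylic acid and defence genes 16 were negative (median -0.23, 0 called). The median was -2.58, 0.04, 0.52 and -0.17 in code sets 1 to 4 and ran from -0.65 to 0.04 with 1 library left out, and without 10 mM replicate 8 there were 4 positive changes of 17. PR1, a marker of that response, had a change of -0.59 ± 1.17 (adjusted p = 0.785).

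Summed levels of markers of other leaf cell types overlapped in range between the doses, though the guard cell median was higher at 10 mM. The 7 vascular markers summed to 396 to 720 CPM (median 541) at 5 mM and 431 to 813 CPM (median 548) at 10 mM. The 10 epidermal markers summed to 318 to 1013 CPM (median 794) and 552 to 898 CPM (median 738). The 6 guard cell markers summed to 112 to 5461 CPM (median 2415) at 5 mM and 767 to 7071 CPM (median 5219) at 10 mM. Most of this came from the myrosinases TGG1 and TGG2. LFY, which marks flowers, was at 0 in all 16 libraries. XCP1, a protease of developing xylem, had a log2 change of 1.98 ± 0.53 (adjusted p = 0.0636) and CER1, a wax enzyme of the epidermis, one of 2.80 ± 1.03 (adjusted p = 0.122). The median over 7 tested vascular markers was 0.91, with 0 called. Of these, 4 were positive and 3 negative: SUC2 at -0.02, APL at -0.17 and PP2-A1 at -0.21. All 4 positive ones were higher at an unadjusted p under 0.05, against 14.3% of all tested genes. Of the 3 negative ones 1 was lower at that threshold, against 10.2% of all tested genes. Of 8 epidermal markers tested 7 were positive, and CUT1 was at -0.51. In leaf punches, fewer cells of a type and less RNA per cell cannot be told apart, and the part of these markers in the results above was not tested.

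The same step of nitrate in the other light levels involved other plants. In the fit of 96 libraries it called 2344 genes (12%) in mid light, 1168 higher (5.99%) and 1176 lower (6.03%). It called 1 gene (0.00513%) in low light, a lower one, where 1006 genes (5.16%) had an unadjusted p under 0.05. The mid-light count was 0 by edgeR when those 16 libraries were fitted alone, with 5008 genes (28.3%) at an unadjusted p under 0.05. The difference of the step between light levels was tested directly. FUM2 and AT2G21210, a gene of the SAUR-like family, were the 2 genes (0.0103%) whose step differed between high and low light. For FUM2 the step was 2.89 ± 0.40 in high light and 0.23 ± 0.37 in low light, a difference of 2.67 ± 0.53 (adjusted p = 0.0290). Its mean in low light was 786 CPM ± 164 (SD, n = 8) at 5 mM and 910 ± 373 at 10 mM, against 45.97 ± 27.9 and 340 ± 200 in high light. Between high and mid light 3 genes (0.0154%) differed. They were PDF1.3, at 4.77 ± 1.102 against -2.68 ± 0.98 (adjusted p = 0.0263), AT2G43590 of the chitinase family, and AT1G77600, all named after their values were seen. Without the third code set both tests of the difference called 0 genes by edgeR, with 1610 and 732 genes at an unadjusted p under 0.05, and without the first code set they called 1 and 0.

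For the called antenna genes the step was positive in all 3 light levels, with a log2 of 1.38 in high, 0.60 in mid and 0.23 in low light for LHCB2.1, and the difference did not pass the test (adjusted p = 0.727 against mid light and 0.320 against low light). ADH1 was called in mid light too, with a change of -1.098 ± 0.27 (adjusted p = 0.0105), and PAP2 with one of -4.58 ± 0.97 (adjusted p = 0.00522). ERD5 had a change of -0.29 ± 0.39 in mid light (adjusted p = 0.658), and its step did not differ between high and mid light by the test of the difference (adjusted p = 0.476).

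Levels at 2 and 20 mM place the 2 doses in the full series in high light. FUM2 had a median of 22.6 CPM at 2 mM, 37.04 at 5 mM, 290 at 10 mM and 829 at 20 mM, and ranges at 10 and 20 mM of 113 to 659 and 483 to 906 CPM. For LHCB2.1 the medians were 544, 555, 1691 and 2904 CPM at 2, 5, 10 and 20 mM, and the ranges at 2 and 5 mM overlapped. NIR1 had medians of 47.1, 59.1, 181 and 432 CPM. ERD5 had medians of 72.4 CPM at 2 mM, 126 at 5 mM, 21.6 at 10 mM and 16.1 at 20 mM, and PAP2 medians of 7.05, 20.7, 3.80 and 0.0531 CPM. For both of these falling genes the median was highest at 5 mM, and the ranges at 2 and 5 mM overlapped. ELIP1 (23.7, 97.9, 19.5 and 7.27 CPM), CHS (640, 1609, 850 and 245.5 CPM) and DFR (386, 775, 507 and 68.2 CPM) also had their highest median at 5 mM. So had LDOX, TT8, PAP1, ADH1, CIPK4, CYP707A4, FDM2 and GIL1. By contrast, the medians of AGF2, FRO3, FMO and UMAMIT17 were highest at 2 mM.

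**Figure D5:**
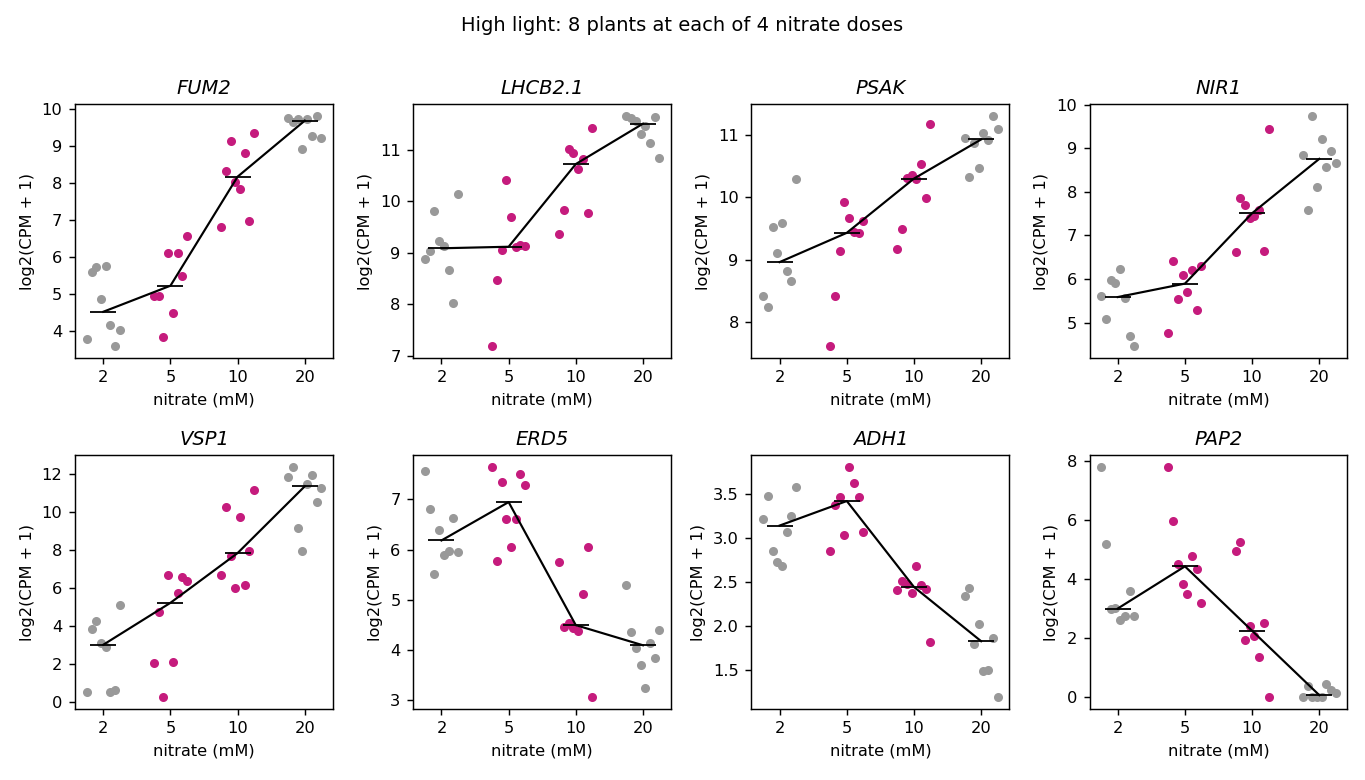
Levels of 8 genes as log2(CPM + 1) in the 8 plants at each of 4 nitrate doses in high light; coloured points are the 5 and 10 mM plants compared here, and the line joins medians. FUM2, LHCB2.1, PSAK, NIR1 and VSP1 have higher medians at 10 and 20 mM than at 2 and 5 mM, and ERD5, ADH1 and PAP2 lower ones.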

How the data were processed

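The table deposited by the authors holds whole-number counts of reads for each gene and library, not normalised. Libraries came from a Kapa stranded mRNA kit, per the labels. STAR 2.5.3a, featureCounts and the TAIR10 genome are named, per the submitters' processing notes. The strand setting is not given in the sources used here, so antisense and overlapping genes cannot be told apart. From the counts, filterByExpr kept 18003 genes, TMM factors were computed, and edgeR 4.0.16 (R 4.3.3) fitted dose and code set to the 16 libraries by the robust quasi-likelihood method. Adjusted p-values are Benjamini-Hochberg over all tested genes, and the SE is the log2 change over the root of F. CPM are counts scaled to 1000000 with TMM factors from all 96 libraries. Contrasts with other light levels used all 96 libraries, with 12 group means and code set.

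Of 32833 loci, 32548 matched the RefSeq TAIR10.1 gene table, which gave the symbols. The 37 lists held 540 entries, and 514 had symbol and locus paired there. The members and lists were chosen with earlier results of these data known. Named genes were the 12 largest rises and 12 largest falls among called genes with a symbol, a mean of at least 5 CPM and the same sign in at least 3 of 4 code sets, up to 4 members of each list with the smallest p, and a fixed set. On simulated counts the fit recovered 14.9%, 86.6% and 93.9% of genes changed by a log2 of 0.5, 1 and 2, with 10 false calls among 17803. These figures describe the simulated counts alone. They do not give the power or the error rate in the real plants, where leaving out 1 library moved the calls between 0 and 1616. DESeq2 1.42.0 and limma 3.58.1 (voom) were alternatives.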

Additional observations from a re-analysis of the deposited data

Results flagged for a closer look

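Among 66 genes and 3 shares checked in both groups, 14 values stood far from the other 7 plants, where chance gives about 1 group in 20. Of these, 11 belonged to 10 mM replicate 8. That plant was the lowest for ADH1 (2.53 CPM, others 4.18 to 5.41), NRT2.5 (0 CPM, others 3.19 to 12.7), GLN1;4 (7.43 CPM, others 37.8 to 149), DFR (2.45 CPM, others 138 to 782), LDOX (4.54 CPM, others 65.2 to 411) and ATG8D, an autophagy gene (10.3 CPM, others 16.0 to 22.8). It was the highest for NIR1 (699 CPM, others 98.0 to 233), RBCS1A (27070 CPM, others 4266 to 8537), ASN2, an asparagine synthetase (118 CPM, others 13.8 to 24.7), the chloroplast share (3.69%, others 2.01 to 2.71%) and the share of the 10 most abundant genes (10.4%, others 5.54 to 6.96%). Its score on the first principal component of the high-light libraries was also the highest of all 32. The mitochondrial share was highest in 10 mM replicate 1 (0.264%, others 0.137 to 0.190%). TT8 was highest in 5 mM replicate 1 (153 CPM, others 29.2 to 57.3), and ATG8D in 5 mM replicate 2 (38.4 CPM, others 19.7 to 26.2).

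The step from 5 to 10 mM differed between light levels for 5 genes. Against low light the difference in log2 was 2.67 ± 0.53 for FUM2 and 3.77 ± 0.75 for AT2G21210 (edgeR adjusted p = 0.0290 for both). Against mid light it was 7.45 ± 1.49 for PDF1.3 (adjusted p = 0.0263), 8.19 ± 1.41 for AT2G43590 (adjusted p = 0.00217) and 0.59 ± 0.12 for AT1G77600 (adjusted p = 0.0263). PDF1.3 and AT2G43590 varied widely between plants of a group, with means of 121 CPM ± 281 (SD, n = 8) and 17.3 ± 44.3 at 10 mM in high light.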

How the results depend on the processing

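The count of 70 called genes moved with nearly every setting, while none of the 26 called and named genes turned sign in the alternatives run. Of the other named genes 5 did: with total counts only MYB60 was at -0.0360, SPL3 at -0.0804 and SPL9 at -0.0204, without code set 1 SPL3 was at -0.0441, SAG101 at 0.0436 and CBP60G at 0.0508, and with 1 library left out SPL3 ran from -0.0714 (without 10 mM replicate 1) to 0.176. It was 2 without the code set term, 988 with a replicate block in its place, 1383 with all 96 libraries, 490 with the 32 high-light libraries, 2253 by DESeq2, 339 by limma-voom, 787 with total counts only, 31 with every gene that had a count and 19 with a mean of at least 5 CPM. RLE factors called 72. It was 1, 211, 0 and 0 without code sets 1, 2, 3 and 4, with 3537 and 3296 genes at an unadjusted p under 0.05 where it was 0, and ranged from 0 to 1616 with 1 library left out. Scaling by total counts alone moved the median of all genes by -0.20 and turned the split of calls from 43 higher and 27 lower to 224 and 563. The medians of the lists for ammonium assimilation, starch and sucrose synthesis, sugar starvation, cold response and floral markers turned negative there. None of the 26 called and named genes kept its call with each library left out. That none of these 26 turned sign follows in part from their being called in these same plants. Within single code sets edgeR called 0 genes, with 837 to 2898 at an unadjusted p under 0.05.

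Whether replicate numbers mark a pairing was not settled. Deviations of same-numbered plants correlated at -0.01 to 0.63 (median 0.42). Plants of the same code set with other numbers correlated at -0.28 to 0.64 (median 0.33), and 4 of 8 numbers matched their own best. The replicate block raised the count of calls to 988, with all 70 among them.

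In mid light the count of 2344 was 325 without the code set term, 156 and 107 without code sets 1 and 3, and 0 with 16 libraries (5008 at an unadjusted p under 0.05). In low light 1 call became 2 without the code set term and 0 with a replicate block (910 unadjusted) or 16 libraries (1364 unadjusted). The 3 genes that differed between high and mid light became 0 without code set 1 (1489 unadjusted) or 3 (732 unadjusted), 8 by DESeq2, 5 by limma-voom and 1 with a replicate block. The 2 that differed between high and low light became 6 without the code set term, 1 and 0 without code sets 1 and 3 (1610 unadjusted in the latter), 86 by DESeq2 and 0 by limma-voom (1826 unadjusted). The differences in chloroplast and top-10 gene shares kept direction and threshold in the alternatives run, with 1 library left out included: 0.5263 to 0.766 and 1.33 to 2.02 points, a check chosen after seeing the data.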

Other observations

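Other gene groups moved little or in both directions, with 0 called unless stated. In the iron list of 8 genes FER3 rose and FRO3 fell (median 0.41). NAS4, which makes the iron chelator nicotianamine, had a log2 change of 1.24 ± 0.29 (edgeR adjusted p = 0.0568), and FER4, another ferritin, one of 0.70 ± 0.17 (adjusted p = 0.0581). Of 9 ATG8 autophagy genes 8 had a negative change (median -0.32), and 2 were called lower in the fit of 96 libraries, against 2% of all genes. Among them, ATG8D had a change of -0.51 ± 0.14 (adjusted p = 0.0636). In the phosphate starvation list (11 genes, median 0.27) MGD3, a galactolipid synthase, had a change of -1.52 ± 0.42 (adjusted p = 0.0674), from 10.7 to 41.8 CPM at 5 mM to 0.961 to 11.7 CPM at 10 mM, with a slight overlap.

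List medians lay near 0 for the circadian clock (-0.05), chlorophyll breakdown (-0.08), starch breakdown (-0.07), starch and sucrose synthesis (0.06), cold response (0.03), photoprotection (-0.08, with ELIP1 called) and sugar starvation (0.08, with ERD5 called). They were 0.25 for trehalose-phosphate synthases, 0.28 for cytokinin response and -0.46 for senescence. GPT2, a glucose-phosphate transporter of plastids, had a change of -0.72 ± 0.32 (adjusted p = 0.190). Marker lists had medians of 0.49 (epidermis), 0.50 (guard cell) and 0.15 (floral transition).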
